A study of Mus musculus with 3 samples.

Results

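Transcripts of 9 genes of the contractile and actin-binding cytoskeleton were described in nephron progenitors of the fetal mouse kidney: the tropomyosins Tpm1, Tpm2, Tpm3 and Tpm4, the transgelins Tagln and Tagln2, the myosin light chain Myl9, the smooth muscle actin Acta2 and the calponin Cnn2. They were taken by symbol and are 9 of the 27998 genes measured. Mouse kidneys of the strain Six2GFP+, in which green fluorescent protein marks cells with an active Six2 gene, were collected at stage E14.5, and those of several litters were combined in 3 tubes. Live single cells with fluorescence were sorted and run on the 10x Chromium system (version 2 chemistry), which counts unique molecular identifiers (UMIs), 1 per captured transcript. All 3 tubes belong to the same untreated group, so no genotype or treatment was compared. Each tube gave 1 library, named here 1, 2 or 3 by its barcode suffix. The sources used here do not tie a suffix to a label.

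The comparison was therefore made between cells within each library, grouped by raw UMIs of 3 marker genes. The Six2 group (Six2 at least 1, Wnt4 and Lhx1 at 0) held 6011 of 7898 kept cells. The Wnt4 group (Wnt4 at least 1, Lhx1 at 0) held 413 cells, and the Lhx1 group (Lhx1 at least 1) held 79. A further 1395 cells had no UMI of any of the 3. The groups are not exclusive in Six2, which had a UMI in 77.2% of Wnt4 group and 60.8% of Lhx1 group cells. Six2 keeps progenitors self-renewing, Wnt4 starts their conversion into epithelium, and Lhx1 is a gene of the early nephron. The groups are sets of cells by UMI and were not shown to be steps of 1 lineage. The values that chose the groups are those of Six2, Wnt4 and Lhx1, which get no test. The members were chosen with earlier results of these data known.

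Tropomyosins are coiled-coil proteins that lie along actin filaments and set which myosins and other proteins can bind there. Each of the 4 genes makes several isoforms, and counts of transcript ends as used here do not separate them. Myl9 encodes a regulatory light chain of non-muscle and smooth muscle myosin II, the motor that pulls on these filaments when the chain is phosphorylated. Acta2 is the actin of smooth muscle and myofibroblasts, Tagln (SM22) is an early marker of smooth muscle, and Tagln2 and Cnn2 are their relatives in non-muscle cells. Many genes of this kind are controlled by serum response factor, which binds a DNA element called the CArG box.

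Sequences upstream of 2 members, Cnn2 and Myl9, are shown because only their promoter windows held an exact CArG box among the members searched. Both fell in cells with a Top2a transcript, as did Tpm1, Tpm2 and Tagln, given further on. Whether the box goes with that fall was not tested. The box was searched as CC, then only A or T, then GG, in 10 bases. RefSeq promoter windows (GRCm38.p6, 250 bases before to 50 after the annotated start) were found for 8 of the 9 members, with 9 windows in all, since Tpm3 has 2. A CArG box on either strand was present in 1.63% of all 32851 windows. The bases up to the first base of the gene in GENCODE are printed 5′ to 3′ on the plus strand, with the match in capitals.
Cnn2, chr10:79988350-79988583: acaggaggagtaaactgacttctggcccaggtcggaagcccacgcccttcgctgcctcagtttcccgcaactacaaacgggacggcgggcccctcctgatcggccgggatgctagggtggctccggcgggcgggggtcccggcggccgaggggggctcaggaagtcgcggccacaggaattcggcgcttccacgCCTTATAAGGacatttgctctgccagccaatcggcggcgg
Myl9, chr2:156775214-156775419: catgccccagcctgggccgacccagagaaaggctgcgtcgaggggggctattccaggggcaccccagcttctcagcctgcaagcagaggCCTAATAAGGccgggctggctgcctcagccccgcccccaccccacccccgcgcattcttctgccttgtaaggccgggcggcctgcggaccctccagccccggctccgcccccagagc
The match starts 56 bases before the annotated start in Cnn2 and 161 bases before it in Myl9. It describes these letters and not a bound site. The windows of the other members searched, Tpm1, Tpm2, Tpm3, Tpm4, Tagln2 and Acta2, held no such exact match. Near matches, such as CCCTATATGG in the Acta2 window, were not counted, and Tagln had no window. Having an exact match therefore does not set Cnn2 and Myl9 apart as genes of serum response factor.

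The libraries held 35268524 to 50894264 UMIs, with a median of 11915 to 15913.5 UMIs per cell, and library 2 was the shallowest per cell. Levels are given as UMIs scaled to a common total of the summed cells (CPM, counts per 1000000). The 7 progenitor markers listed besides Six2 had a summed level of 1164, 1701 and 1331 CPM in the Six2 group of libraries 1, 2 and 3. They were lower in each library in the Wnt4 group (815, 1301 and 847 CPM) and in the Lhx1 group (608, 1144 and 716 CPM). Cells with no UMI of the 3 group genes had 1125 to 1572 CPM, and the immune cells defined below 21.9 to 103. The markers thus set the Six2 group apart from immune cells but hardly from cells with no UMI of the 3 group genes. Median UMIs per cell were 14742 in the Six2, 18385 in the Wnt4 and 16238 in the Lhx1 group. Top2a, a topoisomerase of dividing cells, had a UMI in 43.9% ± 2.36 of Six2 group cells (SD, n = 3 libraries), 61.8% ± 6.91 of Wnt4 group cells and 59.0% ± 21.5 of Lhx1 group cells. Markers of another kidney cell type moved with the Lhx1 group: the 6 genes listed for the ureteric bud, the collecting duct's precursor, which also has Lhx1, summed to 6.60, 246 and 113 CPM there in libraries 1, 2 and 3, against 1.13 to 1.98 in the Six2 and 1.99 to 2.89 in the Wnt4 group. All 6 were detected in the Lhx1 group, and Calb1 led them, with no UMI in library 1 and 176 and 96.4 CPM in the other two. Of the 144 ureteric UMIs, 82 were in 1 cell of library 2 and 44 in 1 cell of library 3. As an alternative chosen after seeing the data, all cells with a ureteric UMI were left out, which took 6 of 79 Lhx1 group, 19 of 413 Wnt4 group and 125 of 6011 Six2 group cells. The part of depth and of cycling cells in the differences between groups was examined only through the alternatives named below. The libraries shared 22 barcode sequences under 2 suffixes. Each library is 1 tube of several litters, so p-values reflect how a within-tube difference varied between 3 tubes, a spread that may be technical.

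Tpm2 was lower in the Wnt4 group than in the Six2 group. Its level was 571, 760 and 682 CPM in the Six2 group of libraries 1, 2 and 3. In the Wnt4 group it was 382, 556 and 369 CPM. It was lower in each library, and the 2 groups did not overlap: the highest Wnt4 group value, in library 2, lay just under the lowest Six2 group value, in library 1. Tpm2 fell by 0.64 ± 0.06 on the log2 scale (SE) between these groups (edgeR's quasi-likelihood test on 9 sums with the library as a block, Benjamini-Hochberg adjusted p = 3.2e-07). Without the library block the adjusted p was 0.146; library 2 stood above the others in both groups. In the Lhx1 group Tpm2 was at 291, 564 and 417 CPM, which spread over the whole range of the Wnt4 group, and the step from Wnt4 to Lhx1 was -0.08 ± 0.10 (adjusted p = 0.92).

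Tpm1 took another course. It was at 90.4, 106 and 97.8 CPM in the Six2 group, at 84.4, 80.1 and 88.0 CPM in the Wnt4 group and at 141, 144 and 128 CPM in the Lhx1 group. Every Lhx1 group value was above every value of the other 2 groups. Tpm1 rose by 0.71 ± 0.12 on the log2 scale from the Wnt4 to the Lhx1 group (edgeR adjusted p = 0.00152). The Lhx1 group rested on 214 Tpm1 UMIs in 79 cells. The call was lost without library 1 (0.68, adjusted p = 0.162), without the library block (0.71, adjusted p = 0.0569), in cells thinned to 5000 UMIs before grouping (0.44, adjusted p = 0.909) and when cells with a Top2a or Mki67 UMI were left out (0.16, adjusted p = 0.994), a setting that leaves 5, 15 and 5 cells in the Lhx1 group. Without the cells with a ureteric UMI, Tpm1 was at 148, 153 and 124 CPM in the Lhx1 group and the change was 0.74 (adjusted p = 0.00212). From the Six2 to the Wnt4 group the change of Tpm1 was -0.20 ± 0.07 and did not pass (adjusted p = 0.078), though it did without a filter on low counts (-0.21, adjusted p = 0.0454).

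Tpm3 and Tpm4 had nearly level values across the groups. Tpm3 was at 317, 409 and 345 CPM in the Six2 group, 320, 413 and 378 in the Wnt4 group and 339, 433 and 381 in the Lhx1 group. Library 2 was the highest in each group. Tpm4 was at 305, 386 and 312 CPM in the Six2 group, 308, 390 and 316 in the Wnt4 group and 303, 428 and 410 in the Lhx1 group. Neither passed in either step: from Six2 to Wnt4 the changes were 0.05 ± 0.04 for Tpm3 (edgeR adjusted p = 0.573) and 0.01 ± 0.05 for Tpm4 (0.914), and from Wnt4 to Lhx1 they were 0.06 ± 0.07 (0.918) and 0.14 ± 0.08 (0.622). Of the 4 tropomyosin genes, Tpm2 was called lower at Wnt4 and Tpm3 and Tpm4 were not called. Tpm1 was called higher at Lhx1, a call lost under the 4 alternatives given above. Over all genes, 10.2% were called from Six2 to Wnt4 and 1.15% from Wnt4 to Lhx1, in either direction.

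**Figure D1:**
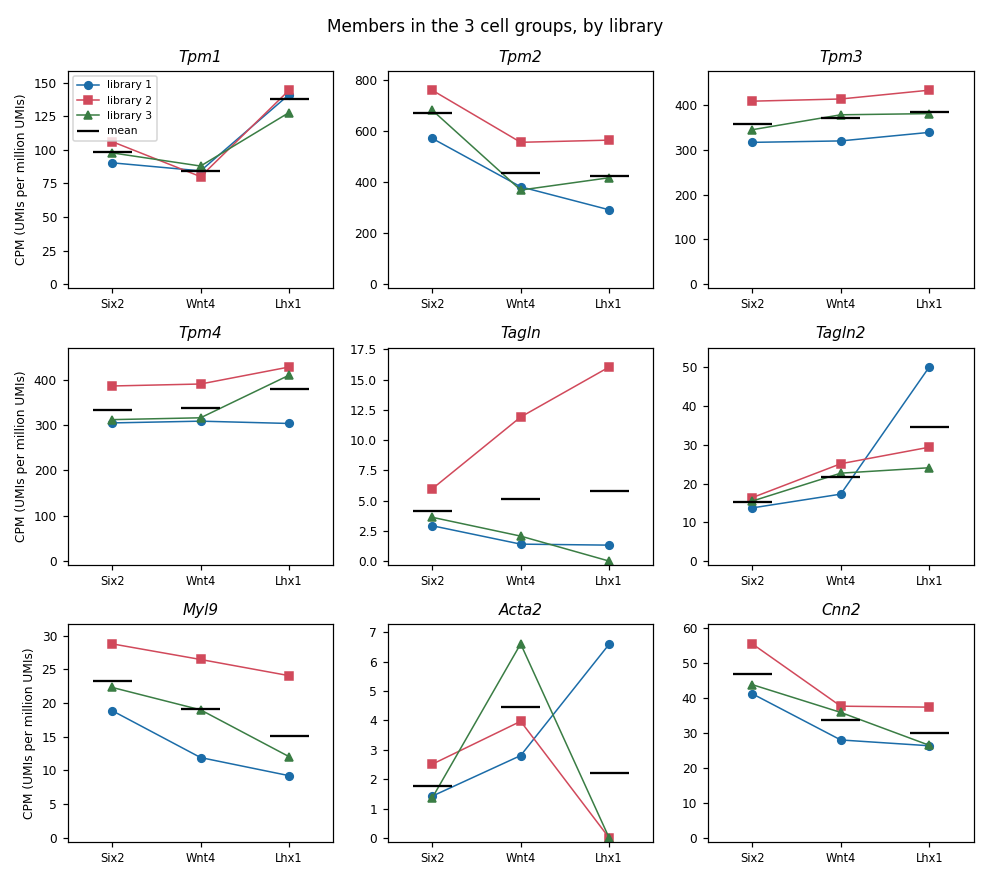
Level of each of the 9 genes (vertical axis, CPM) in the Six2, Wnt4 and Lhx1 groups (horizontal axis). Points are the 3 libraries, joined by lines, and black bars their means; Tpm2 and Cnn2 lie lower in the Wnt4 group than in the Six2 group in every library, and Tpm1 lies highest in the Lhx1 group in every library.

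Among the relatives of calponin and transgelin, Cnn2 was lower with Wnt4. Calponins bind actin filaments and restrain myosin. Cnn2 was at 41.3, 55.6 and 43.9 CPM in the Six2 group, at 28.0, 37.7 and 35.9 CPM in the Wnt4 group and at 26.4, 37.4 and 26.5 CPM in the Lhx1 group. The Six2 group values were all above those of the other 2 groups. It fell by 0.48 ± 0.09 on the log2 scale from the Six2 to the Wnt4 group (edgeR adjusted p = 0.00141). The call was lost without library 1 (-0.41, adjusted p = 0.132), without the library block (adjusted p = 0.072), with DESeq2 (adjusted p = 0.0621), in cells thinned to 5000 UMIs before grouping (-0.12, adjusted p = 0.909) and in cells without Top2a and Mki67 UMIs (-0.22, adjusted p = 0.729). The step from Wnt4 to Lhx1 was -0.17 ± 0.22 (adjusted p = 0.925).

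Tagln2 was at 13.7, 16.4 and 15.5 CPM in the Six2 group, 17.3, 25.1 and 22.7 in the Wnt4 group and 50.1, 29.4 and 24.1 in the Lhx1 group. Each Wnt4 group value was above all Six2 group values. The change of 0.46 ± 0.16 did not pass (edgeR adjusted p = 0.0726), but did without the cells of the immune and stromal rules defined below (0.51, adjusted p = 0.0288), without a filter on low counts (0.44, adjusted p = 0.0405) and with 36 cells of Six2 and Lhx1 moved to the Six2 group (0.45, adjusted p = 0.0483). From Wnt4 to Lhx1 it was 0.88 ± 0.27 (adjusted p = 0.148), and 0.17 without library 1, which held the highest Lhx1 group value. It was 0.26 without the cells with a ureteric UMI (adjusted p = 0.907), where the Lhx1 group stood at 31.6, 17.3 and 18.5 CPM. Without a filter this step passed (0.84, adjusted p = 0.0482).

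Tagln, the transgelin of smooth muscle, was near the limit of detection, at 2.92, 5.97 and 3.62 CPM in the Six2 group and 1.40, 11.9 and 2.07 CPM in the Wnt4 group. In the Lhx1 group it was at 1.32 and 16.04 CPM in libraries 1 and 2 and had no UMI in library 3, which allows up to 7.23 CPM (3 counts, counting error only). Library 2 was the highest in each group. The change from Six2 to Wnt4 was -0.05 ± 0.38 (edgeR adjusted p = 0.964), and 7 of the Wnt4 group's 29 UMIs came from 1 cell of library 2.

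Myl9 was at 18.9, 28.8 and 22.3 CPM in the Six2 group, 11.9, 26.5 and 19.0 in the Wnt4 group and 9.23, 24.1 and 12.1 in the Lhx1 group. Within each library the order was Six2, then Wnt4, then Lhx1, but the groups overlapped, with library 2 high throughout. The change from Six2 to Wnt4 was -0.37 ± 0.14 and did not pass (edgeR adjusted p = 0.102). It was -0.18 without library 1 (adjusted p = 0.687), and without the immune- and stromal-rule cells it passed, at -0.60 (adjusted p = 0.0117). The step to the Lhx1 group was -0.34 ± 0.33 (adjusted p = 0.877).

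Acta2 had 163 UMIs in the whole Six2 group (1.42, 2.51 and 1.36 CPM), 34 in the Wnt4 group (2.80, 3.97 and 6.61 CPM) and 5 in the Lhx1 group, all in library 1 (6.60 CPM), with 0 in the other two, which allows up to 8.02 and 7.23 CPM. It did not reach the count filter of the fit. Of the 16 UMIs behind the Wnt4 group's value in library 3, 13 came from 1 cell that had 1 Wnt4 UMI, no Six2 UMI and met the stromal rule. With no filter the change was 1.33 (edgeR adjusted p = 0.0107), and DESeq2 gave 1.36 (adjusted p = 0.49). Acta2 reached the filter when a library was left out in 2 cases, with 1.60 without library 2 (adjusted p = 0.0197) and 0.82 without library 3 (adjusted p = 0.547).

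Counted together, 2 of the 8 members tested fell from the Six2 to the Wnt4 group and 0 rose, against 10.2% of all 10240 genes called in either direction (4.86% higher, 5.34% lower). The median change of the 8 was -0.12 and that of all genes -0.01. From the Wnt4 to the Lhx1 group 1 of 8 rose and 0 fell, against 1.15% of all genes called in either direction (0.996% higher). The median was 0.10, and 0.00 over all genes. Both steps share the Wnt4 group.

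**Figure D2:**
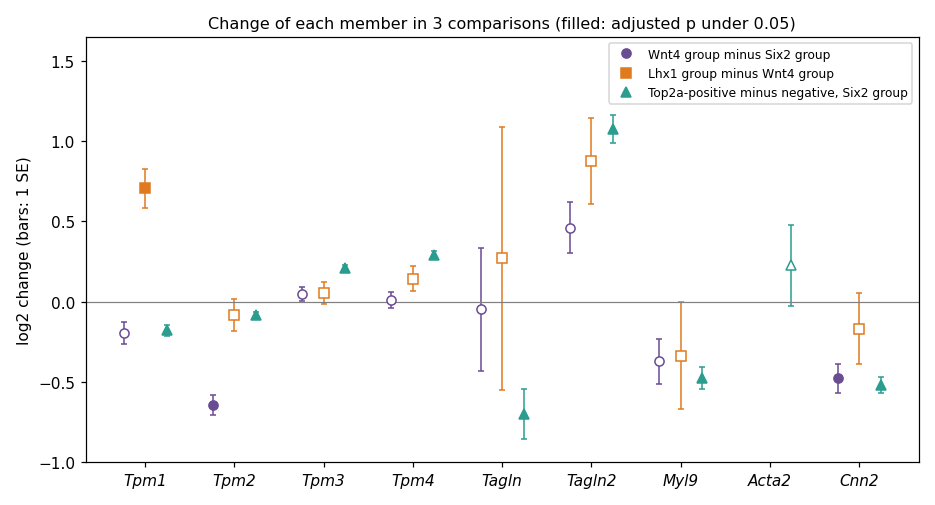
Log2 change of each gene (vertical axis) in 3 comparisons, with bars of 1 SE from the fits over 3 libraries; filled symbols passed at an adjusted p under 0.05 and open ones did not. Tpm2 and Cnn2 are the 2 filled circles below the line for Wnt4 against Six2, Tpm1 is the filled square for Lhx1 against Wnt4, and Acta2 was tested only in the comparison by Top2a.

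The groups rest on thresholds of 1 UMI, so values next to the thresholds are given as a description. Tpm2 was at 508 ± 92.2 CPM (SD, n = 3 libraries) in the 281 cells with 1 Wnt4 UMI and at 278 ± 7.72 CPM in the 132 cells with 2 or more. With 2 or more Wnt4 UMIs the library values were 279, 284 and 269 CPM, closer together than in the other cell classes given here. The Lhx1 group split in a similar way, at 565 ± 150.4 CPM in 47 cells with 1 Lhx1 UMI and 264 ± 52.3 CPM in 32 cells with 2 or more. Cnn2 was at 40.7 ± 6.06 CPM with 1 Wnt4 UMI and 21.7 ± 3.40 with 2 or more, and Myl9 at 24.005 ± 7.93 and 9.53 ± 2.10 CPM. Tpm3 was at 367 ± 38.1 and 394 ± 91.6 CPM, so the lower values at 2 or more UMIs were not shared by every member. Cells with 2 or more Wnt4 UMIs were deeper, with a median of 21288 UMIs against 16884. On the other side of the Six2 threshold, cells with 1 Six2 UMI had 668 ± 104.3 CPM of Tpm2, and cells with no UMI of the 3 markers 618 ± 71.2.

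The test of the Wnt4 step was therefore also run with 2 or more Wnt4 UMIs required, on the same Six2 group. Tpm2 then fell by 1.20 ± 0.09 on the log2 scale (edgeR adjusted p = 1.19e-10) and Cnn2 by 1.06 ± 0.17 (adjusted p = 4.18e-05). Myl9 fell by 1.28 ± 0.25 (adjusted p = 0.000632), from 27 UMIs in the 132 cells with 2 or more Wnt4 UMIs. Cycling cells were not left out of this stricter test. Without them, the grouping at 1 or more Wnt4 UMIs gave -0.51 for Tpm2 (adjusted p = 4.76e-06), -0.22 for Cnn2 (0.729) and 0.24 for Myl9 (0.811). The stricter threshold also changes the next step. Against cells with 2 or more Wnt4 UMIs, the Lhx1 group had more Tpm2 (0.49 ± 0.11, adjusted p = 0.017) and more Tpm1 (0.73 ± 0.14, adjusted p = 0.00401). Only the Wnt4 side was made stricter here, and it held 70, 15 and 47 cells in libraries 1, 2 and 3. With 2 or more UMIs of the marker on both sides, Tpm2 was at 278 CPM in the Wnt4 and 264 CPM in the Lhx1 class. A second choice concerned 36 cells with Six2, Lhx1 and no Wnt4, which were counted in the Lhx1 group. With these cells in the Six2 group, the Lhx1 group kept 20, 10 and 13 cells, and Tpm2 was lower there than in the Wnt4 group (-0.75 ± 0.12, adjusted p = 2.28e-05), Tpm1 higher (0.91 ± 0.14, adjusted p = 1.96e-05) and Tagln2 higher (1.09 ± 0.30, adjusted p = 0.0273). The sign of the Tpm2 step from Wnt4 to Lhx1 thus depends on where these thresholds lie, while that of Tpm1 was the same under both. Cells with a ureteric UMI, 6 of the 79 in the Lhx1 group, were kept in these settings. Of the Lhx1 group's 605 Tpm2 and 59 Tagln2 UMIs, the 73 other cells held 598 and 34. Without cells with a ureteric UMI, the main grouping gave 0.04 for Tpm2 and 0.26 for Tagln2 (edgeR adjusted p = 0.968 and 0.907). Their part in the changed settings was not tested.

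**Figure D3:**
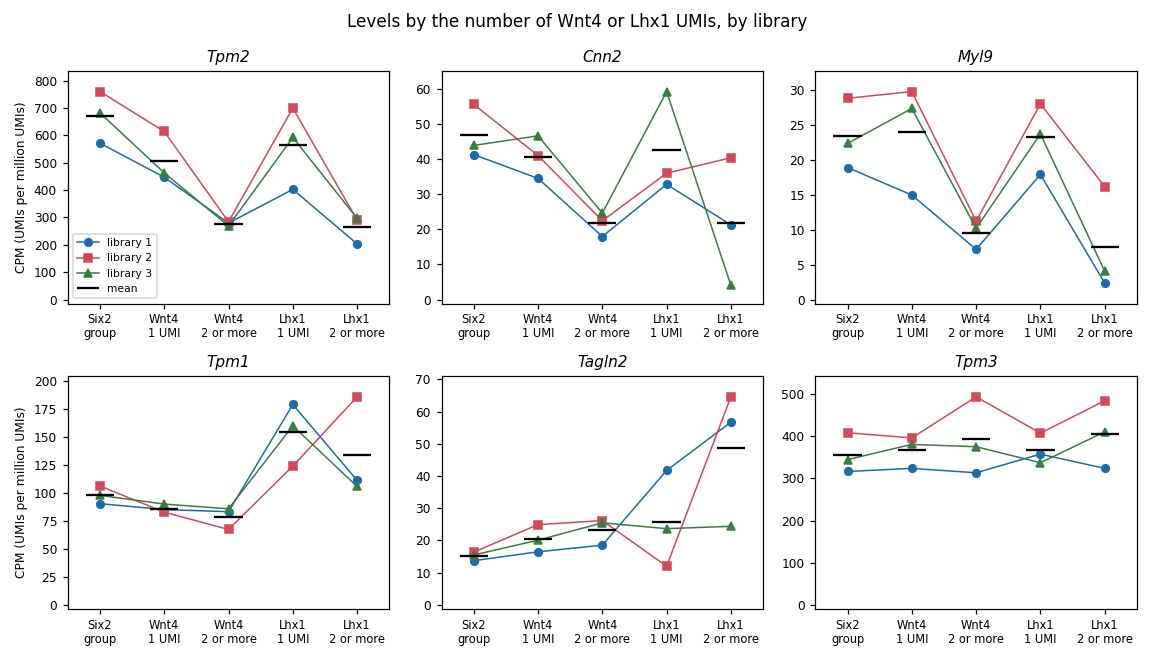
Levels of 6 members (vertical axis, CPM) in the Six2 group and in the Wnt4 and Lhx1 groups divided into cells with 1 and with 2 or more UMIs of the marker (horizontal axis). Points are libraries and black bars means; Tpm2 means run from 671 in the Six2 group to 508 and 278 over the Wnt4 classes, with 565 and 264 over the Lhx1 classes.

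Whether the members go with the cell cycle was asked inside the Six2 group, where cells with a Top2a UMI (2638) were compared with those without (3373). Of the 9 members 8 passed, in both directions. Tagln2 was at 9.22, 11.4 and 8.75 CPM without Top2a and at 17.5, 21.4 and 21.7 CPM with it. The values with Top2a were all above those without. Tagln2 rose by 1.08 ± 0.09 on the log2 scale (edgeR adjusted p = 8.12e-11). Tpm4 was at 279, 350 and 283 CPM without and 326, 422 and 338 CPM with Top2a, higher in each library, a change of 0.29 ± 0.02 (adjusted p = 1.29e-11). Tpm3 was at 297, 391 and 318 CPM without and 333, 427 and 369 CPM with it, a change of 0.21 ± 0.02 (adjusted p = 1.64e-08).

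The 5 members that fell were Cnn2, Myl9, Tagln, Tpm1 and Tpm2. Cnn2 was at 49.4, 68.5 and 51.0 CPM without Top2a and 34.5, 42.4 and 37.4 CPM with it, so the 2 sets did not overlap. It fell by 0.52 ± 0.05 on the log2 scale (edgeR adjusted p = 2.59e-09). Myl9 was at 22.1, 35.3 and 25.4 CPM without and 16.1, 22.1 and 19.5 CPM with Top2a, lower in each library, and fell by 0.47 ± 0.07 (adjusted p = 2.23e-06). Tagln was at 3.46, 7.72 and 4.67 CPM without and 2.47, 4.20 and 2.67 CPM with Top2a, and fell by 0.70 ± 0.16 (adjusted p = 0.00057). Tpm1 and Tpm2 fell by small amounts, 0.18 ± 0.03 (adjusted p = 9.91e-05) and 0.09 ± 0.02 (adjusted p = 0.000873), each in every library. Acta2 was at 1.63 ± 0.18 CPM without and 1.91 ± 1.13 with Top2a, with no call (0.23 ± 0.25, adjusted p = 0.485).

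In all, 3 of the 9 members rose and 5 fell with Top2a, where 46.3% of all 12422 genes tested were called, 23.4% higher and 23% lower. With so many genes called, the members' share is read by its sizes and not by its count. The median change was -0.09 over the members and -0.02 over all genes. Cells with Top2a were deeper, at a median of 18144.5 UMIs against 13092. With cells thinned to 5000 UMIs before grouping, 7 of the 8 calls remained and that of Tagln was lost (-0.86, adjusted p = 0.0796), while the change of Tagln2 was 0.70 (adjusted p = 0.00166) in place of 1.08. Without the library block the calls of Tpm1 (adjusted p = 0.141), Tpm2 (0.54), Tpm3 (0.0619) and Tagln (0.108) were lost, and DESeq2 did not call Tpm2 (0.0953) and Tagln (0.107).

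**Figure D4:**
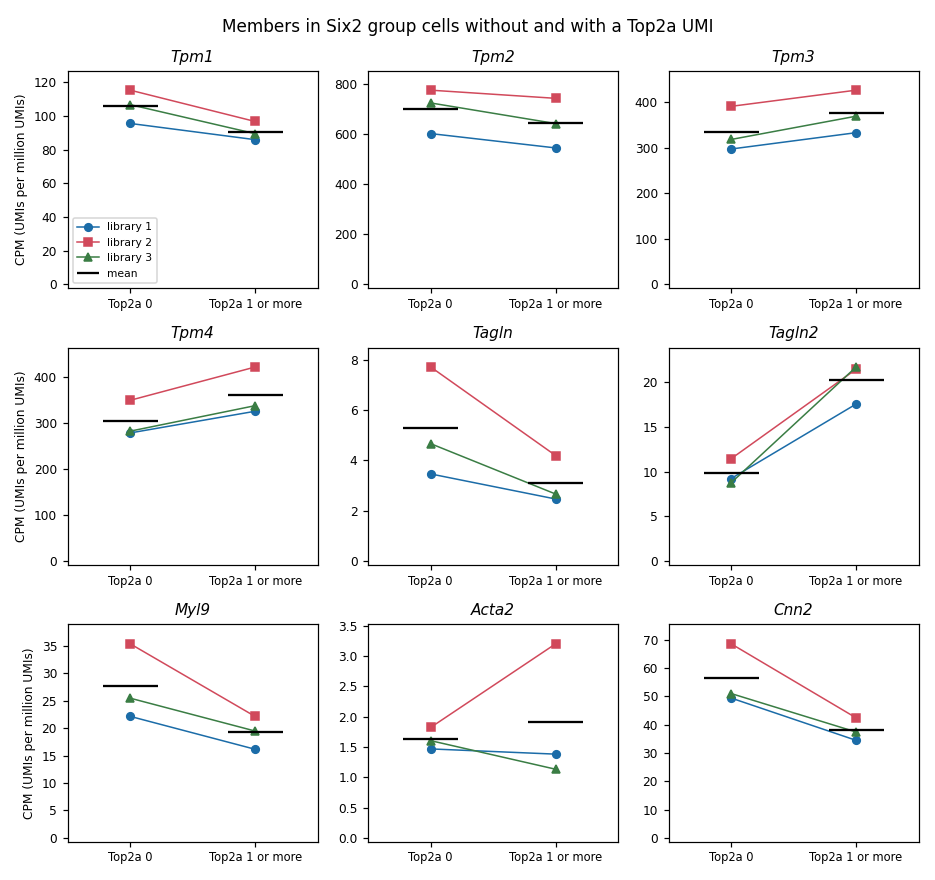
Level of each gene (vertical axis, CPM) in Six2 group cells without and with a Top2a UMI (horizontal axis). Points are the 3 libraries and black bars their means; Tagln2, Tpm3 and Tpm4 slope upward in all 3 libraries and Tpm1, Tpm2, Tagln, Myl9 and Cnn2 downward.

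A wider set of 57 actin cytoskeleton genes in 7 lists was followed beside the members. In the fit over the cell groups 49 were tested. From the Six2 to the Wnt4 group 0 rose and 6 fell, with a median change of -0.04, where 5.34% of all genes fell and their median was -0.01. The 6 were the cytoplasmic actin Actg1 (-0.14, edgeR adjusted p = 0.00987), caldesmon Cald1, which binds actin and tropomyosin (-0.25, 0.0461), the LIM-domain adaptor Pdlim7 (-0.30, 0.018), the small GTPase Rhoc (-0.29, 0.00886) and the serum response factor targets Egr1 (-0.32, 0.000165) and Fos (-0.39, 0.0205). Of the 8 genes tested from the myosin II list and the 10 from the list on actin filament turnover, 0 passed. Only Egr1 of the 6 was called with each library left out in turn: without library 1 the adjusted p of Actg1 was 0.198, Cald1 0.288, Pdlim7 0.334, Rhoc 0.301 and Fos 0.302. Cald1 was also lost without the cells with a ureteric UMI (0.0718). None of the 6 was called without the library block, and only Egr1 was called without cycling cells. DESeq2 did not call Cald1 (adjusted p = 0.656), Pdlim7 (0.297), Rhoc (0.184) and Fos (0.843). In cells thinned before grouping, edgeR did not call Actg1 (adjusted p = 0.462), Cald1 (0.347), Pdlim7 (0.267) and Rhoc (0.976). From the Wnt4 to the Lhx1 group 0 of the 49 passed.

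With Top2a, 14 of 52 tested genes of these lists rose and 20 fell, beside the same background of 23.4% and 23%. Ect2, an exchange factor needed for cell division, led the increases, from 4.93 ± 1.69 to 34.5 ± 7.58 CPM (SD, n = 3), a log2 change of 2.83 ± 0.09 (edgeR adjusted p = 6.03e-19). The next were the LIM protein Fhl1 (0.64), the actin crosslinker Actn4 (0.45), the protein kinase Rock2 (0.35) and the myosin heavy chain Myh9 (0.34 from 13.7 to 16.8 CPM). The decreases were led by the actin filament nucleator Lmod1 (-0.79, at 1.36 ± 0.06 and 0.72 ± 0.41 CPM), Cald1 (-0.43), the small GTPase Rhob (-0.41), Fos (-0.36), Pdlim7 (-0.35) and Vasp (-0.34), which speeds filament growth. Fhl1 (adjusted p = 0.0612), Myh9 (0.136) and Lmod1 (0.325) were not called by DESeq2. Thinned, Fhl1 was at 0.29 (adjusted p = 0.568) and Myh9 at 0.21 (0.462). Without the library block the calls of Cald1 (0.175), Fos (0.34), Myh9 (0.0611) and Lmod1 (0.276) were lost. The call of Lmod1 was also lost without library 2 (adjusted p = 0.197), without library 3 (0.218), without immune- and stromal-rule cells (0.0511), without cells whose barcode held 10 or more A or T (0.0735) and without cells with a ureteric UMI (0.0723).

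The 10 markers of smooth muscle and mural cells were examined because the members include smooth muscle genes. Their summed level was 341 to 431 CPM in the Six2, 232 to 310 in the Wnt4 and 186 to 265 in the Lhx1 group, and nearly all of it was desmin, the intermediate filament protein of muscle. Des was at 355 ± 49.9 CPM in the Six2 group (SD, n = 3), 248 ± 41.0 in the Wnt4 group and 212 ± 47.9 in the Lhx1 group, and fell by 0.52 ± 0.05 on the log2 scale from Six2 to Wnt4 (edgeR adjusted p = 7.01e-07; 0.11 without the library block). The defining smooth muscle genes were at or near 0: Myh11, the smooth muscle myosin, had 2 UMIs and Cnn1, the smooth muscle calponin, 12 UMIs over all 6011 Six2 group cells. Myh11, Actg2 and Myocd were at 0 in the Wnt4 group, and Cnn1 and Pdgfrb as well in the Lhx1 group. The other markers listed, Notch3, Mcam, Rgs5, Cspg4 and Pdgfrb, were at 7.57, 4.49, 2.15, 1.31 and 0.745 CPM in the Six2 group. In the Wnt4 group they were at 7.22, 6.65, 2.40, 2.62 and 0.587 CPM, so not all of them moved as Des did. In the stromal-rule cells defined below they were at 7.53, 4.34, 40.25, 4.42 and 10.7 CPM.

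Cells taken by a stromal or an immune rule carried the members at different levels. The stromal rule (at least 2 of 7 collagen and stromal genes detected, with at least 4 UMIs over them) took 128 cells, of which 80 were in the Six2 group. The 127 that did not also meet the immune rule still held progenitor markers at 910 to 1418 CPM. Acta2 was at 18.8 ± 4.71 CPM there (SD, n = 3) against 1.76 ± 0.65 in the Six2 group. Myl9 was at 107 ± 17.7 against 23.3 ± 5.03 CPM, Cnn2 at 135 ± 19.0 against 46.9 ± 7.61, Tpm1 at 181 ± 8.95 against 98.1 ± 7.89, Tagln at 8.95 ± 4.67 against 4.17 ± 1.60 and Tagln2 at 39.7 ± 5.58 against 15.2 ± 1.35. Tpm4 was at 409, 491 and 435 CPM against 305, 386 and 312 CPM. In each of these genes except Tagln all 3 libraries of the stromal rule lay above all 3 of the Six2 group. The share of all genes that separate in this way was not determined, so it is not read as a trait of the members. Tpm2 ran the other way, at 519 ± 60.5 against 671 ± 94.7 CPM, and Tpm3 was level at 362 ± 57.7 against 357 ± 47.1. The rule used measured UMIs of other genes and some cells are in both sets, so these values are a description. Stromal-rule cells made up 1.33% of the Six2, 1.45% of the Wnt4 and 3.80% of the Lhx1 group (3 of 79 cells).

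The immune rule (at least 2 of 6 immune genes, with at least 4 UMIs) took 73 cells with a median of 9279 UMIs, beside the 1 cell of both rules. Tagln2 was at 206, 448 and 281 CPM there, and Cnn2 at 114, 187 and 92.1 CPM. Both were above every Six2 group library. Tpm3 was at 543 ± 71.6 CPM (SD, n = 3) and Tpm4 at 294 ± 160.7. Tpm2 was at 88.1, 145 and 43.9 CPM, far under the Six2 group. Tagln and Acta2 had 0 UMIs, which allows up to 4.20 CPM for each over the 3 libraries (3 counts, counting error only) and up to 4.11% of the cells with a UMI. Myl9 was found only in library 2, with 51 UMIs, 50 of them in 1 cell.

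**Figure D5:**
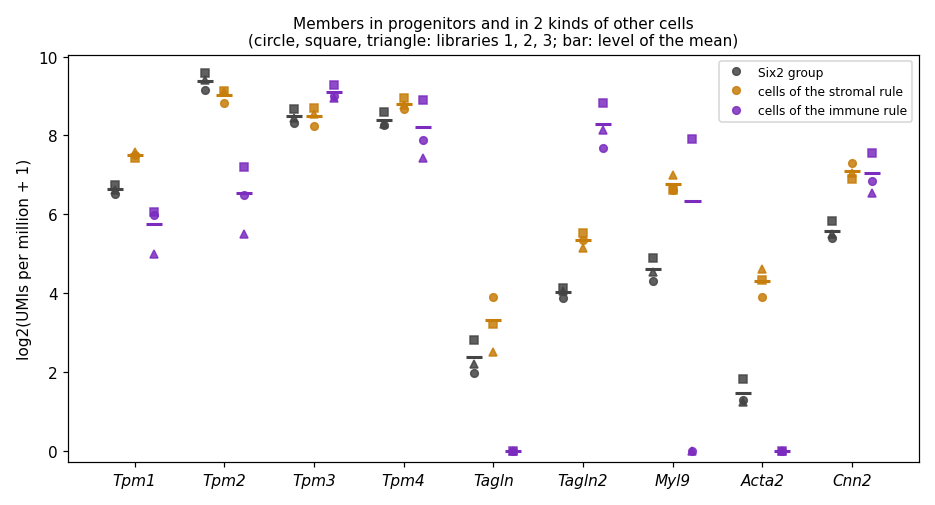
Level of each gene as log2(CPM + 1) (vertical axis) in the Six2 group, in stromal-rule cells and in immune-rule cells. Symbols are the 3 libraries and bars mark the log2 of the mean plus 1; Tagln and Acta2 are at 0 in immune-rule cells, where Tagln2 is the highest of the 3 kinds of cell and Tpm2 the lowest.

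Cell by cell, the members ranged from nearly universal to rare. Tpm2 had a UMI in 99.4% ± 0.30 of Six2 group cells (SD, n = 3), and in 93.6% ± 2.60 when each cell was thinned to 5000 UMIs. In immune-rule cells, where its level was lowest, the shares were 41.0% ± 12.1 and 27.9% ± 4.45 at a lower depth (median 9279 against 14742 UMIs). Thinned shares of Tpm2 were 80.0% ± 8.27 in the Wnt4 and 76.6% ± 13.1 in the Lhx1 group. Tagln2 had a UMI in 18.1% ± 0.47 of Six2 group, 29.9% ± 2.87 of Wnt4 group and 36.0% ± 13.3 of Lhx1 group cells, or 6.58% ± 0.66, 8.99% ± 3.15 and 15.97% ± 5.17 after thinning. Cnn2 was found in 43.3% ± 1.27, 37.1% ± 3.16 and 32.1% ± 5.03, or 20.5% ± 2.48, 14.7% ± 3.25 and 11.2% ± 10.0 after thinning. Immune-rule cells had Cnn2 in 52.1% ± 5.55 and Tagln2 in 76.7% ± 2.64, so they give no background for these 2 genes, and how far free RNA adds to their shares was not tested. Acta2 had 250 UMIs in 189 of all kept cells, with 20.4% of them in 10 cells and 16.8% in stromal-rule cells, and Tagln 512 UMIs in 357 cells.

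Correlations between members across cells were weak. Across thinned Six2 group cells of 1 library, Pearson's r of log2(UMIs + 1) was highest for Myl9 and Cnn2, at 0.085 to 0.139 over the libraries, and for Tagln and Acta2, at 0.062 to 0.114. The lowest was that of Tpm2 and Tpm3, at -0.094 to -0.003. The cells share a library and a fixed depth, and in counts this sparse such values are no finding.

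Genes most like each member over the 9 sums were found by Pearson's r of log2(CPM + 1) after the library mean was removed, among 3278 genes of at least 50 CPM. The sums share libraries and only 3 cell groups, so r describes a shared order of groups. Tpm2 was followed by Nnat (0.993), Sh3bgrl (0.991) and Moxd1 (0.99). Nnat, which encodes neuronatin, went from 621 to 402 and 409 CPM over the Six2, Wnt4 and Lhx1 groups, where Tpm2 had means of 671, 435 and 424 CPM. Tpm1 was followed by Hoxb7 (0.991), Tpd52 (0.98) and Tspan13 (0.971), and Hoxb7, a homeobox gene, had means of 61.6, 48.9 and 90.0 CPM. For Cnn2 they were Cenpw (0.973), Eif3f (0.96) and Fkbp1a (0.956), for Myl9 Rsrc2 (0.974), Tshz2 (0.973) and Pabpc1 (0.965), and for Tagln2 Calr (0.986), Rwdd4a (0.984) and Chchd2 (0.97). For Tpm3 they were Psmc4 (0.958), Nme1 (0.954) and Tmem97 (0.948), and for Tpm4 Bnip2 (0.988), Ppp6c (0.974) and Dynll2 (0.973).

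In GENCODE annotation of GRCm38, Tpm2 (ENSMUSG00000028464) spans chr4:43514711-43523765 on the minus strand, Tpm1 (ENSMUSG00000032366) chr9:67022590-67049406 on the minus strand, Cnn2 (ENSMUSG00000004665) chr10:79988584-79996062 on the plus strand, Myl9 (ENSMUSG00000067818) chr2:156775420-156781658 on the plus strand and Tagln2 (ENSMUSG00000026547) chr1:172500047-172507380 on the plus strand. Each of the 9 symbols matched 1 gene there.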

How the data were processed

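The authors deposited counts, whole numbers of UMIs per gene and cell barcode, as 1 sparse matrix for 3 libraries. The submitters' processing notes name Cell Ranger 1.3.1 and the build mm10. Barcodes with fewer than 1000 genes or over 10% mitochondrial UMIs were left out, so that 7898 of 7924 stayed. Scrublet's threshold called 23 cells (0.291%), so the caller had not worked and no doublets were removed; leaving out the 6% highest scores was an alternative.

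UMIs were summed per library and cell group. The 9 sums, and 6 for the Top2a comparison, were tested with edgeR 4.0.16 (TMM, filterByExpr, quasi-likelihood test, library as block, two-sided, Benjamini-Hochberg adjustment over all genes, threshold 0.05). SE is the log2 change over the root of F. On simulated counts the comparisons of Wnt4 against Six2 and by Top2a were checked, and that of Lhx1 against Wnt4 was not. DESeq2 1.42.0, RLE scaling, no filter, no block, each library left out, thinning to 5000 UMIs and other cell selections were alternatives; leaving out cells with a ureteric UMI was added after seeing the data. Same-library sums come from 1 tube, and their deviations from the group means correlated at 0.44 to 0.964 (Pearson's r across genes).

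Members and lists were chosen with earlier results of these data known. All 9 members are named, and of the other actin lists the passing genes with the 6 largest changes in each direction; Des was named after its values were seen, and 1 gene that the rule names is not reported here. Promoter windows came from RefSeq and gene positions from GENCODE M21.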

Additional observations from a re-analysis of the deposited data

How the results depend on the processing

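Counts of genes passing, 1045 for Wnt4 against Six2, 118 for Lhx1 against Wnt4 and 5756 by Top2a, moved most with the model and the cells kept. With DESeq2 they were 336 (195 higher, 141 lower), 161 and 2603 (1700 higher, 903 lower), and with no replicate block 86, 69 and 1923. With cells thinned before grouping they were 115, 6 and 2595. Without cells with Top2a or Mki67 UMIs they were 142 and 3. For Lhx1 against Wnt4, no filter on low counts gave 259 and the move of 36 cells into the Six2 group 356, and without cells with a ureteric UMI, an alternative chosen after seeing the data, it was 77. Leaving out 1 library gave 269 to 1211, 35 to 162 and 4908 to 5157; the lowest counts of the first 2 comparisons came without library 1 (269 and 35), and without library 3 the first was 364. RLE scaling, other barcodes, doublet scores and leaving out immune- and stromal-rule cells stayed within 1.5 times.

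Some changes had the other sign under an alternative. For Wnt4 against Six2, thinning gave -0.085 for Tpm3, -0.13 for Tpm4 and 0.032 for Rhoc, and no filter gave -0.004 for Tpm4. Leaving out a library gave 0.35 (library 1) and 0.19 (library 3) for Tagln, which had no value without library 2, and Myl9 was at 0.24 without cycling cells. For Lhx1 against Wnt4, Tpm2 ranged from -0.198 (without library 3) to 0.107 (without library 1) and was at 0.043 without cells with a ureteric UMI, 0.34 without cycling cells and 0.49 with 2 or more Wnt4 UMIs, where Myl9 was at 0.57 and Cnn2 at 0.42; Tagln was at -0.19 with the 36 cells moved. By Top2a, Acta2 ranged from -0.23 (without library 2) to 0.446 (without library 3) and was at -0.027 without immune- and stromal-rule cells. The cause of these shifts was not tested. With all 3 libraries Acta2 did not reach the count filter of the fit over the cell groups.

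Shares of Six2 group cells with a UMI depend on depth. Thinned to 5000 UMIs they were 37.9% for Tpm1, 93.6% for Tpm2, 80.9% for Tpm3, 78.6% for Tpm4, 1.91% for Tagln, 6.58% for Tagln2, 10.2% for Myl9, 0.70% for Acta2 and 20.5% for Cnn2.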

Other observations

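A few cells held many UMIs of a member, which touches the levels of the small classes. The 2 cells with the most Myl9, 60 and 50 UMIs, were both in library 2, had no UMI of Six2, Wnt4 or Lhx1 and carried 28 and 97 UMIs of Pf4, which encodes platelet factor 4. They also held 19 and 16 UMIs of Cnn2 and 0 of Acta2. The first of them met neither the immune nor the stromal rule, and the second met the immune rule. The third cell by Myl9, with 27 UMIs, was a Six2 group cell of library 1 that met the stromal rule and had 24 UMIs of Cnn2. The cell with 13 Acta2 UMIs in the Wnt4 group of library 3 also had 18 UMIs of Myl9 and 10 of Cnn2. These cells were picked for their values after these were seen.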
